A study of Caenorhabditis elegans with 17 samples.

Results

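The comparison described here asks whether lowering ash-2 changes the transcriptome by the same factor when hsf-1 is also lowered. It used all 17 of the 17 libraries of the series as a 2-by-2 design. For each gene, the log2 change on adding ash-2 RNAi in animals on hsf-1 RNAi was set against the log2 change on adding ash-2 RNAi in animals on the empty vector L4440. The difference between these changes is called the interaction below. It is 0 when the changes made by the 2 RNAi clones multiply, positive when animals on both clones were higher than that product, and negative when they were lower.

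Whole-animal RNA of day 1 adult Caenorhabditis elegans was sequenced after 96 h of growth at 20 °C. The groups were animals on ash-2 + hsf-1 RNAi (n = 4), on hsf-1 RNAi (n = 4), on ash-2 RNAi (n = 4) and on L4440 (n = 5), and RNAi was given by feeding E. coli HT115 (DE3). Every animal, controls included, carried rmIs133, in which the muscle promoter unc-54p drives a polyglutamine stretch (Q40) fused to YFP, so no group here has the transgene-free background. The parents of the ash-2 and of the ash-2 + hsf-1 animals had been kept on ash-2 RNAi as well, so the ash-2 change in both backgrounds spans both generations. No source used here gives the proportions in which the clones were mixed. The labels call the libraries biological replicates and say no more about separate cultures, so p-values measure the spread between these libraries.

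ASH-2 is a core subunit of the COMPASS complexes, which methylate lysine 4 of histone H3 at the start of active genes; in C. elegans it acts in the germline, among other tissues. HSF-1 is the heat shock transcription factor, which drives chaperone genes under stress and a further set of genes during larval development. In a whole-animal measurement, fewer cells of a type and less RNA per cell cannot be told apart, and the germline is a large part of an adult hermaphrodite.

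Levels are FPKM, fragment numbers scaled to transcript length and library size. Of 26786 genes, 13084 had at least 4 of the 17 libraries at an FPKM of 1 or more and were tested with limma on log2(FPKM + 0.5), a scale that understates changes of genes at low levels. A gene was called at a Benjamini-Hochberg adjusted p under 0.05 over all genes tested, and adjusted p-values below come from that fit unless another test or setting is named. Fragment totals are not given, so no counting intervals could be set. Genes at an FPKM of 1 or more numbered 10591 in replicate 3 of the animals on both clones, 10745 in replicate 4 of the hsf-1 animals, and 9401 and 9817 in replicates 1 and 3 of the ash-2 animals; the other 13 libraries had 11170 to 13066. These 4 libraries are drawn as open circles in the plots. A further library, ash-2 + hsf-1 replicate 4, had 11.01% of its summed FPKM in its 10 strongest genes, against 5.95 to 8.86% in the other 16, and the highest FPKM total. The median interaction over all genes tested was 0.23 on the log2 scale, and 0.01 after median-of-ratios scaling, so an interaction near 0.23 is the level of the typical gene.

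The targeted transcripts were checked first. The ash-2 transcript had 7.85, 11.6, 3.92 and 10.6 FPKM in the ash-2 + hsf-1 libraries, 16.9, 17.4, 16.8 and 5.57 FPKM in the hsf-1 libraries, 2.04, 8.68, 2.57 and 8.54 FPKM in the ash-2 libraries, and 17.2, 19.1, 15.2, 16.25 and 14.1 FPKM in the L4440 libraries. One hsf-1 library, replicate 4, lay among the ash-2 RNAi libraries, and the other 3 hsf-1 libraries lay above every ash-2 + hsf-1 library. Replicate 4 is a library with few detected genes, and its low values were not limited to ash-2. Its median log2 difference from the L4440 mean over all genes tested was -0.56, against 0.15, 0.21 and 0.18 in the other hsf-1 libraries. The difference in mean ash-2 level between ash-2 + hsf-1 and hsf-1 animals, 5.68 FPKM in size, gave p = 0.114 in an exact two-sided permutation test over 70 arrangements (adjusted over both target tests, 0.114; 0.0286 is the smallest p possible). Without hsf-1 replicate 4 the difference was 8.53 FPKM in size and its exact permutation p was 0.0286. That library was left out for the value tested, and the other 3 lay above all 4 ash-2 + hsf-1 libraries. This p was therefore bound to be the smallest that 4 against 3 libraries allow, and it adds no support. The ash-2 level averaged 8.47 ± 3.42 FPKM on both clones and 5.46 ± 3.64 FPKM on ash-2 RNAi alone (SD, n = 4 each), ranges that overlap. The lowest values, 3.92 FPKM on both clones and 2.04 and 2.57 FPKM on ash-2 RNAi alone, came from libraries with few detected genes. What part a difference in the depth of the knockdown has in the interactions below was not tested.

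The hsf-1 transcript had 9.78, 11.5, 6.05 and 11.7 FPKM in the ash-2 + hsf-1 libraries, 14.6, 13.01, 15.1 and 7.33 FPKM in the hsf-1 libraries, 16.3, 41.5, 22.1 and 40.2 FPKM in the ash-2 libraries, and 31.3, 33.8, 27.7, 30.03 and 26.5 FPKM in the L4440 libraries. Every ash-2 + hsf-1 library was below every ash-2 library. The difference of 20.3 FPKM in size gave an exact two-sided permutation p of 0.0286, the smallest that 4 against 4 libraries allow, and 0.0571 after adjustment over both target tests. Interactions of the targets themselves were 1.05 ± 0.63 for ash-2 (SE; adjusted p = 0.698) and -0.24 ± 0.42 for hsf-1 (adjusted p = 0.832), so neither was called.

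**Figure D1:**
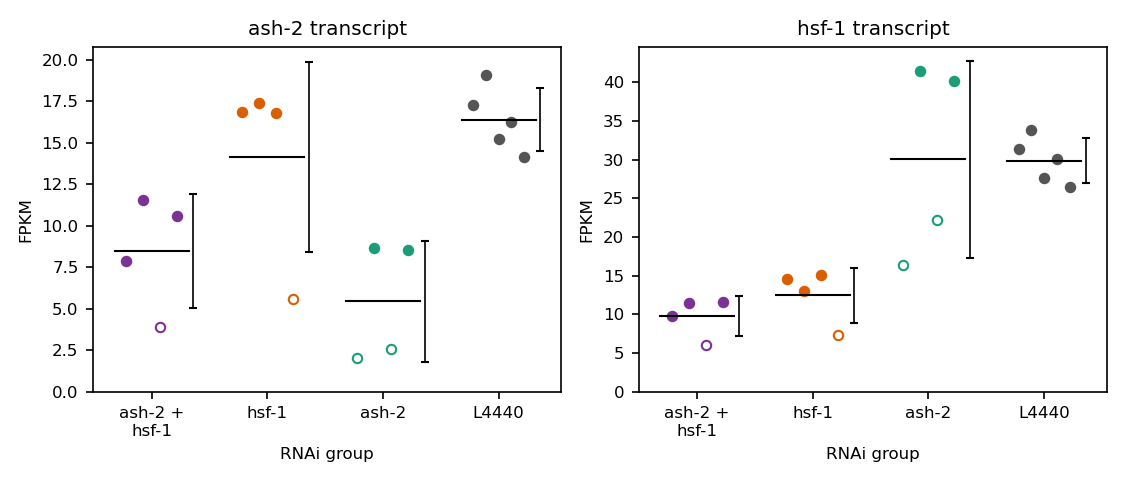
Levels of the ash-2 and hsf-1 transcripts in FPKM (vertical axis) in each library of the 4 RNAi groups (horizontal axis); points are libraries, horizontal lines group means, bars 1 SD, and open circles the 4 libraries with few detected genes. The open circle of the hsf-1 group sits at 5.57 FPKM for ash-2, below the other 3 hsf-1 libraries.

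Of the 13084 genes tested, 14 were called for the interaction (0.107%), 12 of them negative (0.0917%) and 2 positive (0.0153%). One positive gene, spp-9, reached an FPKM of 1 in the ash-2 + hsf-1 libraries alone, so it entered the test through the group where it was high. The negative genes encode parts and makers of the cuticle and its overlying matrix (sqt-3, cut-2, lpr-3, lpr-6, bus-5), an alcohol dehydrogenase (adh-1), a homologue of the Hedgehog acyltransferase (hhat-1), the noncoding RNA tts-2, dao-2 and the uncharacterised F46C5.1, F18C5.5 and T22F3.11. Both positive genes belong to innate immunity families, the invertebrate-type lysozyme gene ilys-2 and the saposin-like gene spp-9. F46C5.1, F18C5.5, T22F3.11 and hhat-1 fall outside the rule that chose the named genes and are named after their values were seen.

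The 12 negative genes had 1 shape in common. Their group mean was lowest on L4440 in 12 of 12, as in 10.9% of all genes tested, and highest on ash-2 RNAi in 7 and on hsf-1 RNAi in 5. It was highest on both clones in 0. Each clone alone thus went with a higher mean than L4440, and both clones together stayed below what the single changes multiply to. A negative interaction itself favours a low L4440 or a low ash-2 + hsf-1 mean, so this is a description of the called genes. The FPKM ranges of the ash-2 and L4440 libraries did not overlap in 11 of the 12 genes, and those of the ash-2 + hsf-1 and hsf-1 libraries did not overlap in 7. The genes were called on these same values, which favours separate ranges. The share of all genes tested with separate ranges was not computed, so these counts show no trait of the 12 genes.

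The count of 14 rested on every library. Leaving out any 1 of the 17 left between 4 and 9 calls, and leaving out the 4 libraries with few detected genes left 5, of which 3 were among the 14 (tts-2, cut-2 and ilys-2). Calls of tts-2, sqt-3, cut-2 and ilys-2 held whichever single library was left out, and that of lpr-6 was lost only without hsf-1 replicate 3 (adjusted p = 0.0542). Each of the other 9 lost its call in 12 or more of the 17 fits. Of the 14, 8 were called after median-of-ratios scaling; cut-2 (adjusted p = 0.0832), ilys-2 (0.404), dao-2 (0.196), adh-1 (0.0645), F46C5.1 (0.0557) and T22F3.11 (0.0629) were not.

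**Figure D2:**
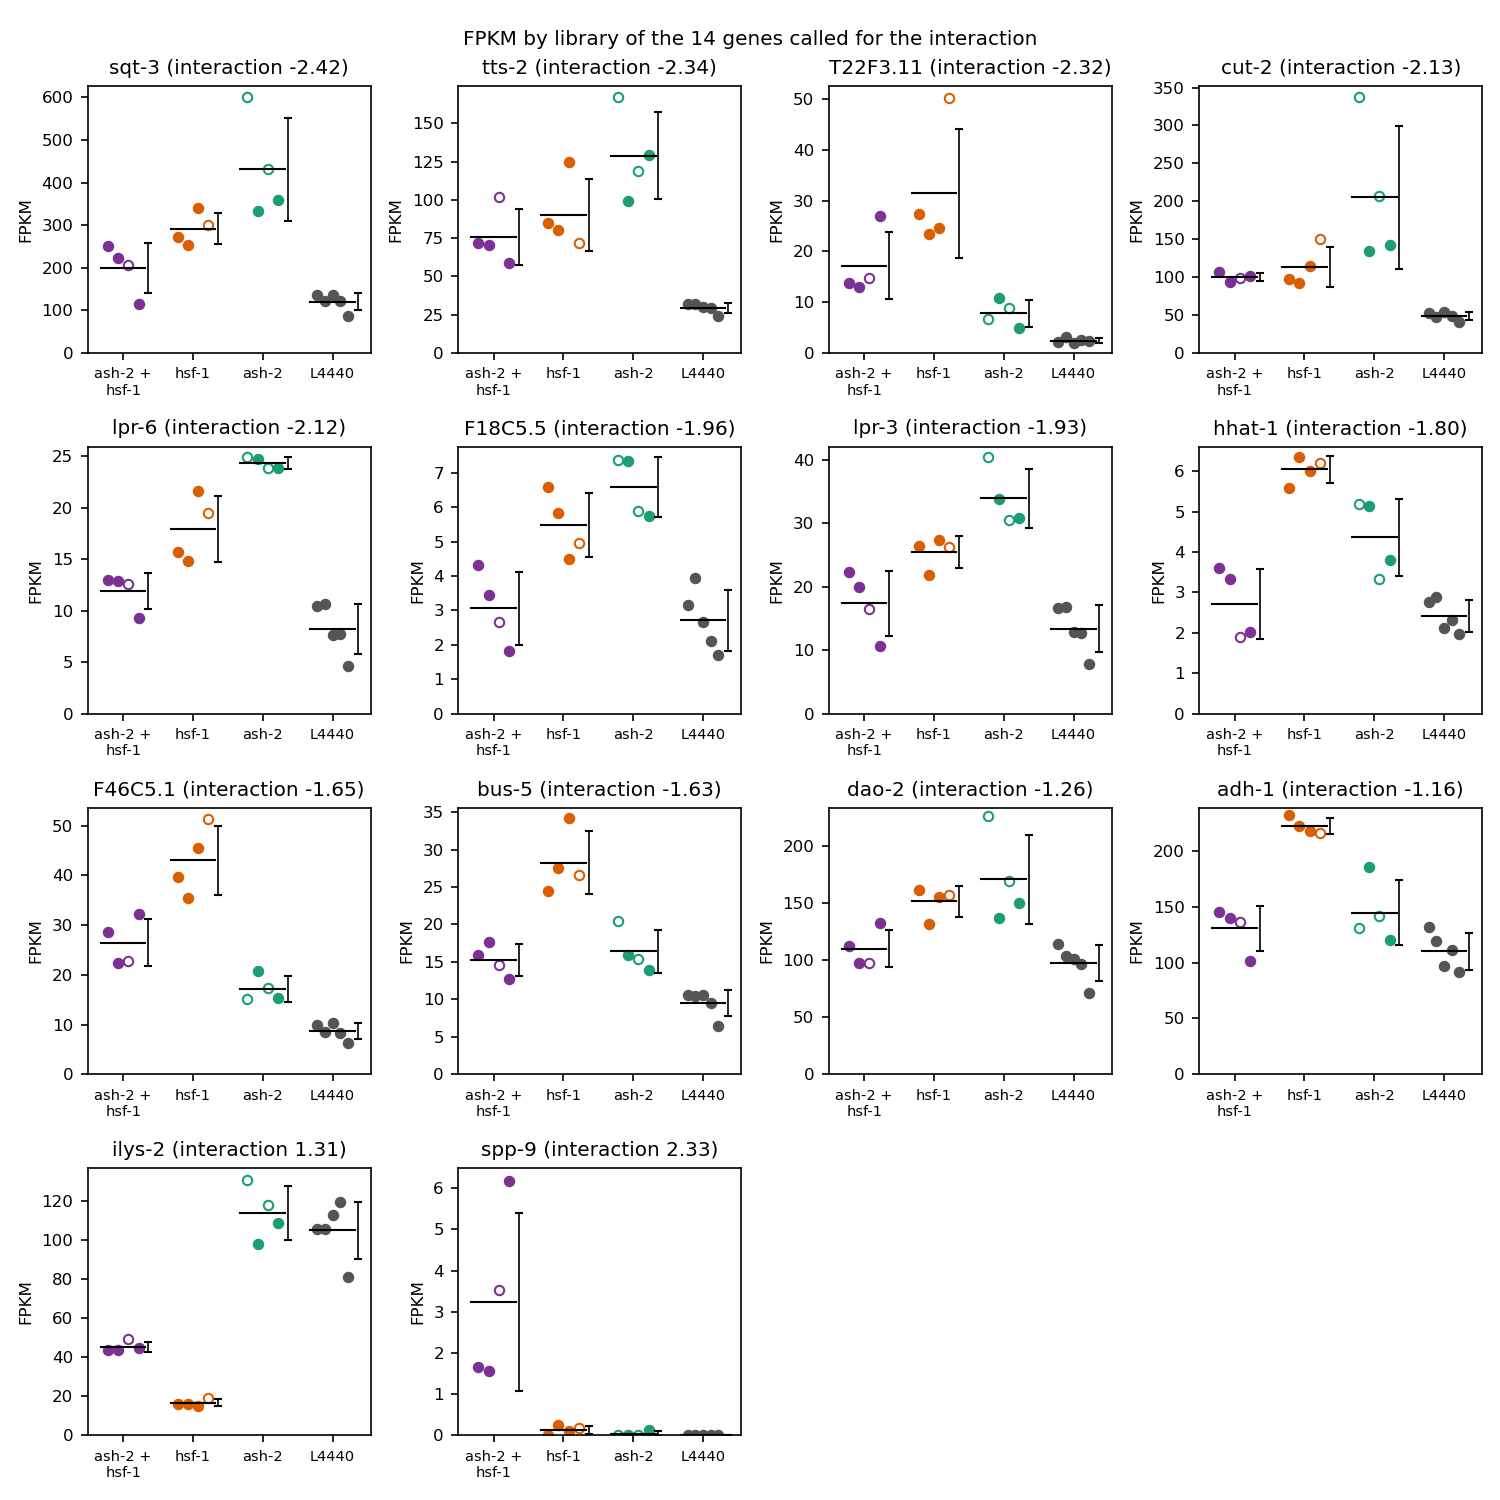
FPKM (vertical axis, linear, a scale of its own for each gene) by library in the 4 RNAi groups (horizontal axis) for the 14 called genes, ordered by their log2 interaction, which stands in each title; lines are group means, bars 1 SD, open circles the 4 libraries with few detected genes. In the first 12 panels the L4440 group has the lowest mean, and in the last 2 panels the ash-2 + hsf-1 group is above the hsf-1 group.

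The largest negative interaction among the called genes was that of sqt-3, a collagen gene of the cuticle whose mutants have an altered body shape (chromosome V, 12352745 to 12354320, WBcel235). It had 250.1, 223, 206 and 115 FPKM in the ash-2 + hsf-1 libraries, 273, 254, 339 and 300.3 FPKM in the hsf-1 libraries, 601, 332, 432 and 359 FPKM in the ash-2 libraries, and 136, 121, 135, 123 and 85.7 FPKM in the L4440 libraries. Every library on a single clone was above every library on both clones and above every L4440 library. The ash-2 change was -0.60 ± 0.23 with hsf-1 RNAi (SE; adjusted p = 0.125) and 1.82 ± 0.22 with L4440 (adjusted p = 1.44e-05), and the interaction was -2.42 ± 0.32 (adjusted p = 0.00587). The level on both clones averaged 190.5 FPKM on the log scale, where the single changes multiply to 1023 FPKM. Without the 4 libraries the interaction of sqt-3 was -2.16 and not called (adjusted p = 0.0544). The gene overlaps the annotated F23H12.13.

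The cuticlin gene cut-2, whose product is an insoluble, cross-linked cuticle protein, lies at 13414949 to 13416064 of chromosome V and overlaps no other annotated gene. It had 107, 93.2, 98.2 and 102 FPKM in the ash-2 + hsf-1 libraries, 97.3, 92.3, 114 and 151 FPKM in the hsf-1 libraries, 337, 135, 206 and 142 FPKM in the ash-2 libraries, and 52.4, 47.6, 53.6, 48.0 and 41.2 FPKM in the L4440 libraries. The ash-2 + hsf-1 libraries lay inside the range of the hsf-1 libraries, while all ash-2 libraries were above all L4440 libraries. The ash-2 change was -0.16 ± 0.23 with hsf-1 RNAi (SE; adjusted p = 0.832) and 1.97 ± 0.22 with L4440 (adjusted p = 6.77e-06), and the interaction was -2.13 ± 0.32 (adjusted p = 0.0138). The multiplied single changes give 438 FPKM, and 99.8 FPKM was the log-scale mean on both clones. Without the 4 libraries the interaction of cut-2 was -1.51, and it stayed called (adjusted p = 0.0144); after median-of-ratios scaling it was -2.40 and was not (adjusted p = 0.0832).

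The lipocalin-related genes lpr-3 and lpr-6 are neighbours on the X chromosome, at 11057401 to 11059793 and at 11059994 to 11061871. Lipocalins bind lipophilic molecules, and LPR-3 is known as a secreted component of the apical matrix that coats epithelia. Levels of lpr-6 were 12.97, 12.9, 12.55 and 9.32 FPKM in the ash-2 + hsf-1 libraries, 15.7, 14.8, 21.7 and 19.4 FPKM in the hsf-1 libraries, 24.9, 24.7, 23.9 and 23.9 FPKM in the ash-2 libraries, and 10.5, 10.6, 7.67, 7.71 and 4.66 FPKM in the L4440 libraries. The ash-2 libraries were above all hsf-1 libraries and these above all ash-2 + hsf-1 libraries, whose range overlapped that of L4440. The lpr-6 interaction was -2.12 ± 0.32 (adjusted p = 0.0138), made up of an ash-2 change of -0.56 ± 0.23 with hsf-1 RNAi and of 1.56 ± 0.22 with L4440 (SE). Without the 4 libraries lpr-6 kept a negative value that was not called (adjusted p = 0.065).

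For lpr-3 the values were 22.3, 20.0, 16.47 and 10.7 FPKM in the ash-2 + hsf-1 libraries, 26.4, 21.8, 27.5 and 26.2 FPKM in the hsf-1 libraries, 40.5, 33.9, 30.5 and 30.9 FPKM in the ash-2 libraries, and 16.7, 16.8, 12.9, 12.7 and 7.82 FPKM in the L4440 libraries. The hsf-1 library nearest to the ash-2 + hsf-1 group overlapped it, and the ash-2 libraries were above all others. The interaction of lpr-3 was -1.93 ± 0.35 (adjusted p = 0.0445), and -1.85 without the 4 libraries (adjusted p = 0.106). A further neighbour, lpr-5, had an interaction of -1.60 ± 0.30 and missed the threshold (adjusted p = 0.0592). It averaged 8.90 ± 1.65 FPKM on both clones, 12.64 ± 1.69 FPKM on hsf-1 RNAi, 14.04 ± 1.25 FPKM on ash-2 RNAi (SD, n = 4 each) and 6.39 ± 1.60 FPKM on L4440 (SD, n = 5). The median interaction of the 6 lpr genes tested, of 7 annotated, was -1.62, and it lay between -1.93 and -1.62 under the scalings tried and without the 4 libraries.

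The remaining gene tied to the body surface was bus-5, which encodes a predicted sugar nucleotide dehydratase and is known from mutants to which a surface pathogen no longer adheres. It had 15.9, 17.7, 14.6 and 12.7 FPKM in the ash-2 + hsf-1 libraries, 24.5, 27.5, 34.2 and 26.6 FPKM in the hsf-1 libraries, 20.5, 15.9, 15.4 and 13.9 FPKM in the ash-2 libraries, and 10.6, 10.4, 10.7, 9.45 and 6.49 FPKM in the L4440 libraries. Here the hsf-1 libraries were above all others and the L4440 libraries below all others. The change on adding ash-2 RNAi ran in opposite directions in the 2 backgrounds, and each was called: bus-5 fell by 0.87 ± 0.20 on the log2 scale with hsf-1 RNAi (adjusted p = 0.0109) and rose by 0.76 ± 0.19 with L4440 (SE; adjusted p = 0.00908). Its interaction was -1.63 ± 0.28 (adjusted p = 0.034), and -1.51 without the 4 libraries (adjusted p = 0.0769).

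The same opposite calls were found for hhat-1 and F46C5.1. The level of hhat-1 averaged 2.71 ± 0.875 FPKM on both clones, 6.04 ± 0.334 FPKM on hsf-1 RNAi, 4.36 ± 0.949 FPKM on ash-2 RNAi (SD, n = 4 each) and 2.41 ± 0.395 FPKM on L4440 (SD, n = 5). Adding ash-2 RNAi gave a change of -1.07 ± 0.22 with hsf-1 RNAi (adjusted p = 0.00546) and of 0.73 ± 0.21 with L4440 (SE; adjusted p = 0.0218), an interaction of -1.80 ± 0.31 (adjusted p = 0.034), or -1.70 without the 4 libraries (adjusted p = 0.0685). The gene lies within the span of unc-52, so reads of the larger gene could bear on it where the counting does not part them. F46C5.1 averaged 26.5 ± 4.71 FPKM on both clones, 42.99 ± 6.95 FPKM on hsf-1 RNAi, 17.1 ± 2.61 FPKM on ash-2 RNAi (SD, n = 4 each) and 8.63 ± 1.58 FPKM on L4440 (SD, n = 5). Its ash-2 changes were -0.69 ± 0.20 with hsf-1 RNAi (adjusted p = 0.0369) and 0.96 ± 0.19 with L4440 (SE; adjusted p = 0.00145), and its interaction was -1.65 ± 0.28 (adjusted p = 0.034), or -1.56 without the 4 libraries (adjusted p = 0.0769).

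**Figure D3:**
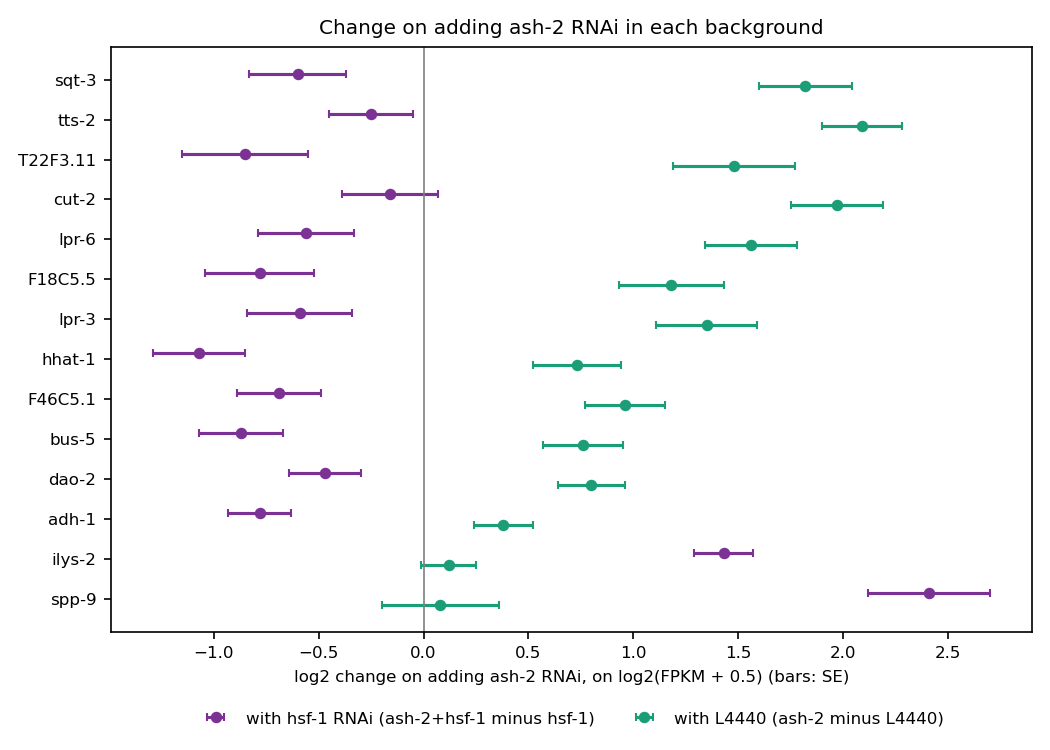
Change on adding ash-2 RNAi on the log2(FPKM + 0.5) scale (horizontal axis, bars 1 SE) for the 14 called genes (rows), in purple with hsf-1 RNAi and in green with L4440. In the upper 12 rows the purple estimates lie below 0 and the green ones above 0, from -1.07 to -0.16 and from 0.38 to 2.09; in the lower 2 rows purple lies at 1.43 and 2.41.

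The smallest adjusted p belonged to tts-2, a noncoding RNA gene (chromosome II, 10201125 to 10202230) that overlaps no other annotated gene. It had 72.0, 70.3, 102 and 58.9 FPKM in the ash-2 + hsf-1 libraries, 85.0, 80.0002, 125 and 71.5 FPKM in the hsf-1 libraries, 167, 99.5, 119.2 and 129 FPKM in the ash-2 libraries, and 31.8, 32.03, 29.8, 29.4 and 24.1 FPKM in the L4440 libraries. All 12 RNAi libraries were above all 5 L4440 libraries, and the ash-2 + hsf-1 and hsf-1 ranges overlapped. The ash-2 change was -0.25 ± 0.20 with hsf-1 RNAi (SE; adjusted p = 0.603) and 2.09 ± 0.19 with L4440 (adjusted p = 1.6e-06), and the interaction was -2.34 ± 0.28 (adjusted p = 0.00289). It was -2.43 without the 4 libraries (adjusted p = 0.003).

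The alcohol dehydrogenase gene adh-1, which overlaps its relative sodh-2, had 145, 139.9, 137 and 101 FPKM in the ash-2 + hsf-1 libraries, 232, 222, 218 and 216 FPKM in the hsf-1 libraries, 131, 186, 142 and 120.1 FPKM in the ash-2 libraries, and 132, 119.8, 97.1, 111 and 91.3 FPKM in the L4440 libraries. The hsf-1 libraries stood above the rest, and the other 3 groups overlapped. It fell by 0.78 ± 0.15 on the log2 scale when ash-2 RNAi was added to hsf-1 RNAi (adjusted p = 0.00362), while the change with L4440 was 0.38 ± 0.14 (SE; adjusted p = 0.0752), an interaction of -1.16 ± 0.21 (adjusted p = 0.0452), or -1.26 without the 4 libraries (adjusted p = 0.0893). For dao-2, first described by its expression in dauer larvae and aging adults, levels averaged 110.2 ± 16.3 FPKM on both clones, 152 ± 13.4 FPKM on hsf-1 RNAi, 171 ± 39.3 FPKM on ash-2 RNAi (SD, n = 4 each) and 97.6 ± 16.12 FPKM on L4440 (SD, n = 5), with an interaction of -1.26 ± 0.23 (SE; adjusted p = 0.0452). Without the 4 libraries the dao-2 value was -0.97 (adjusted p = 0.166).

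T22F3.11 averaged 17.1 ± 6.60 FPKM on both clones, 31.4 ± 12.63 FPKM on hsf-1 RNAi, 7.80 ± 2.63 FPKM on ash-2 RNAi (SD, n = 4 each) and 2.39 ± 0.453 FPKM on L4440 (SD, n = 5), and its interaction was -2.32 ± 0.42 (SE; adjusted p = 0.0445). F18C5.5 averaged 3.06 ± 1.06 FPKM on both clones, 5.48 ± 0.926 FPKM on hsf-1 RNAi, 6.59 ± 0.881 FPKM on ash-2 RNAi (SD, n = 4 each) and 2.72 ± 0.884 FPKM on L4440 (SD, n = 5). Its interaction was -1.96 ± 0.36 (SE; adjusted p = 0.0452). Without the 4 libraries T22F3.11 had -1.99 (adjusted p = 0.0893) and F18C5.5 had -1.95 (adjusted p = 0.0964). T22F3.11 was highest on hsf-1 RNAi and F18C5.5 on ash-2 RNAi, so the negative genes were not all highest on the same clone.

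Among the positive genes, ilys-2 (chromosome IV, 2467678 to 2468879) encodes a lysozyme of the invertebrate type, a class of enzymes that cleave bacterial cell walls. It had 43.7, 43.7, 49.2 and 44.6 FPKM in the ash-2 + hsf-1 libraries, 16.09, 15.8, 15.2 and 19.2 FPKM in the hsf-1 libraries, 131, 98.1, 118 and 109 FPKM in the ash-2 libraries, and 106, 106, 113, 119.6 and 81.1 FPKM in the L4440 libraries. The ash-2 and L4440 ranges overlapped, the ash-2 + hsf-1 libraries lay well below both, and the hsf-1 libraries lay lower still. It rose by 1.43 ± 0.14 on the log2 scale on adding ash-2 RNAi with hsf-1 RNAi (adjusted p = 3.24e-05), and the change with L4440 was 0.12 ± 0.13 (SE; adjusted p = 0.526). Its interaction was 1.31 ± 0.19 (adjusted p = 0.0138). Read along the other side of the design, hsf-1 RNAi lowered it by 1.32 ± 0.14 with ash-2 RNAi and by 2.62 ± 0.13 with L4440 (SE), the same 1.31 apart. The call was lost after median-of-ratios scaling, at an interaction of 1.03 (adjusted p = 0.404).

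The saposin-like gene spp-9 belongs to a family that includes the pore-forming caenopores. It had 1.65, 1.57, 3.52 and 6.18 FPKM in the ash-2 + hsf-1 libraries, 0, 0.232, 0.104 and 0.172 FPKM in the hsf-1 libraries, 0, 0, 0 and 0.127 FPKM in the ash-2 libraries, and was listed at 0 in all 5 L4440 libraries. Every library on both clones was above every other library. Because only the ash-2 + hsf-1 libraries carried it over the level filter, a difference was bound to appear, and its call adds no support to the positive count. L4440 is listed at 0, so its fitted interaction of 2.33 ± 0.40 (SE; adjusted p = 0.034) also depends on the pseudocount. No single-library omission left it called, and with the 4 open-circle libraries left out it was under the level filter.

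The next 3 genes by p had negative interactions. Besides lpr-5 they were cki-1, an inhibitor of cyclin-dependent kinases, at -1.25 ± 0.24 (SE; adjusted p = 0.0748), and tth-1, a thymosin beta gene, at -0.95 ± 0.19 (adjusted p = 0.0748).

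The 32 gene lists of pathways and cell types are described by counts at an unadjusted p under 0.05, since few members were called. By that measure 833 of the 13084 genes tested passed (6.37%), 481 with a positive interaction (3.68%) and 352 with a negative one (2.69%). In either direction, 1497 passed after median-of-ratios scaling, 1750 after quantile normalization and 1575 with the number of detected genes as a covariate. With array weights, which did not converge, 2564 passed, and without the 4 libraries 1242 of 13004. List counts in those fits are to be read beside these. No gene list is tested as a set here.

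The molting and apical matrix list holds genes that build and shed the cuticle: cuticlins, lipocalin-related genes, molting genes (mlt), proteases (nas) and the zona pellucida domain genes noah-1 and noah-2. Of its 99 members 67 passed the level filter. Of these 3 were called, cut-2, lpr-6 and lpr-3, or 1 without the 4 libraries and 1 without hsf-1 replicate 3. There were 7 after median-of-ratios scaling, 11 after quantile normalization and 15 with the number of detected genes as a covariate. Calls over all genes tested rose as well, from 14 (0.107%) to 45 (0.344%), 78 (0.596%) and 196 (1.5%) in the scaling and covariate fits. A negative interaction at an unadjusted p under 0.05 was found for 14 of 67 (20.9% in either direction) and a positive one for 0. The negative count was 22, 29 and 23 in the fits with median-of-ratios scaling, quantile normalization and the covariate. In these fits 1497, 1750 and 1575 of all genes tested passed in either direction, against 833 in the main fit, so the background rose too. The list's median of -0.10 was below the 0.23 of all genes, and was -0.29 after median-of-ratios scaling, -0.51 after quantile normalization and -0.49 without the 4 libraries, against medians of 0.01, -0.02 and -0.20 over all genes.

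Within the list the negative values lay in some gene families more than in others. The cut and cutl genes had a median of -0.51, with 16 of 20 below 0 and 4 negative at an unadjusted p under 0.05. Over all genes tested, 4263 of 13084 were below 0. Both noah genes were below 0. The 8 mlt genes had a median of -0.03, with 4 above 0 and 4 below, 3 of them negative at an unadjusted p under 0.05. The noah-2 transcript averaged 23.6 ± 9.68 FPKM on both clones, 25.6 ± 3.04 FPKM on hsf-1 RNAi, 51.8 ± 8.15 FPKM on ash-2 RNAi (SD, n = 4 each) and 21.98 ± 2.52 FPKM on L4440 (SD, n = 5). Its interaction was -1.41 ± 0.33 (SE; adjusted p = 0.183), and adding ash-2 RNAi gave a change of -0.20 with hsf-1 RNAi (adjusted p = 0.783) and of 1.21 with L4440 (adjusted p = 0.000933). Unlike noah-2, the cuticlin gene cut-3 was higher on both clones than on hsf-1 RNAi (adjusted p = 0.00736). It averaged 18.5 ± 11.02 FPKM on both clones, 3.73 ± 2.02 FPKM on hsf-1 RNAi, 48.8 ± 16.16 FPKM on ash-2 RNAi (SD, n = 4 each) and 2.18 ± 0.426 FPKM on L4440 (SD, n = 5). The interaction of cut-3 was -2.06 ± 0.64 (SE, adjusted p = 0.385). The 19 nas protease genes had a median of 0.45, and of -0.03 after quantile normalization, with 0 past an unadjusted p under 0.05.

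Cuticle collagens had members on both sides. Of 176 members 140 were tested and 1 was called, sqt-3. Unadjusted, 9 were positive and 9 were negative, and the median was -0.04. That split moved with the scaling: 2 were positive and 18 negative after median-of-ratios scaling, and 7 and 18 after quantile normalization. In those fits 1497 and 1750 of all genes tested passed in either direction, against 833 in the main fit. The negative side held dpy-3 (-1.96 ± 0.42, adjusted p = 0.144) and dpy-2 (-1.28 ± 0.32, adjusted p = 0.239), collagens needed for the annular furrows of the cuticle. The positive side held col-135 (2.44 ± 0.61, SE; adjusted p = 0.239), which averaged 2.16 ± 1.16 FPKM on both clones, 2.32 ± 0.935 FPKM on hsf-1 RNAi, 1.84 ± 1.095 FPKM on ash-2 RNAi (SD, n = 4 each) and 13.1 ± 5.90 FPKM on L4440 (SD, n = 5). Its mean on both clones thus lay between its means on each. The count of positive collagens was 5 when ash-2 replicate 1 was left out and 23 when replicate 3 was, and 13 were positive and 15 negative without the 4 libraries.

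Among 49 tested of 84 hedgehog-related genes, secreted proteins and their Patched-related partners that in C. elegans act in epithelia and molting, 0 were called, 8 were negative at an unadjusted p under 0.05 and 0 were positive. Leaving out hsf-1 replicate 4, ash-2 + hsf-1 replicate 3 or ash-2 + hsf-1 replicate 4 left 5. The covariate and quantile fits gave 15 and 16, where 1575 and 1750 of all genes tested passed in either direction, against 833 in the main fit. The warthog genes wrt-1, wrt-2 and wrt-10 had interactions of -1.66 ± 0.46, -1.75 ± 0.55 and -1.40 ± 0.42 (SE), and the Patched-related gene ptr-16 had 1.41 ± 0.449 FPKM on both clones, 3.69 ± 0.600 FPKM on hsf-1 RNAi, 1.29 ± 0.263 FPKM on ash-2 RNAi (SD, n = 4 each) and 1.35 ± 0.229 FPKM on L4440 (SD, n = 5). That gene was high on hsf-1 RNAi alone, with an interaction of -1.1 ± 0.29 (SE; adjusted p = 0.250). It had the lowest interaction of the 18 ptr genes tested, whose median was 0.15, with 12 above 0 and 6 below. The ptr median was -0.03 after median-of-ratios scaling and -0.33 without the 4 libraries. The 8 wrt genes tested had a median of -0.66, with 6 below 0.

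Sperm genes had the highest unadjusted share of the 32 lists. They include the major sperm protein genes (msp), which encode the cytoskeletal protein of crawling nematode sperm, and small families expressed in developing sperm (nspd, ssp, ssq, sss). Of 95 members 81 were tested and 0 were called by limma after adjustment, while 54 of 81 (66.7%) had a positive interaction at an unadjusted p under 0.05, against 3.68% of all genes, and 0 had a negative one. Quantile normalization gave 31 such genes, and median-of-ratios scaling 26. The count was between 51 and 56 when any single library was left out and 52 without the 4 libraries. With other settings of the fit 3 members (median-of-ratios scaling), 20 (number of detected genes as a covariate) or 51 (array weights) were called. Those settings called 45 (0.344%), 196 (1.5%) and 752 (5.75%) of all genes tested. The array weights did not converge. They gave ash-2 + hsf-1 replicate 1 a weight of 177, against 0.112 to 0.584 in the rest of its group, which thus rested almost wholly on that library. The list's median interaction was 1.43, and 0.93 after quantile normalization.

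The median ash-2 change of the 81 sperm genes was -1.23 with hsf-1 RNAi and -2.70 with L4440. Relative to the L4440 mean, the median over the list was -0.79, -0.81, -0.80 and -0.16 in the 4 ash-2 + hsf-1 libraries, 0.61, 0.43, 0.46 and 0.94 in the hsf-1 libraries, -3.16, -2.49, -1.91 and -2.97 in the ash-2 libraries, and -0.15 to 0.12 in the L4440 libraries. The ash-2 + hsf-1 libraries stood between the ash-2 and the L4440 libraries, and replicate 4 of them reached the edge of the L4440 range. That replicate is the library with the high share in few genes; its list medians were also apart for ribosomal proteins (0.89, against -0.32 to 0.26 in the other 3) and vitellogenins (-2.40, against -0.49 to -0.39). Without it the sperm list's median interaction was 1.13 and the unadjusted count 52. Summed over all 95 members, the level ran from 1746 to 4963 FPKM on both clones, the highest in replicate 4, from 4814 to 8855 FPKM on hsf-1 RNAi, from 449 to 991 FPKM on ash-2 RNAi and from 3364 to 3681 FPKM on L4440. Of the 95, 2 were at 0 in all libraries on both clones, 0 on hsf-1 RNAi, 6 on ash-2 RNAi and 2 on L4440.

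The families of the list differed in size. The 30 msp genes tested had a median interaction of 1.57, with 29 positive at an unadjusted p under 0.05, the 9 nspd genes 1.69 with 9, the 16 ssp, ssq and sss genes 1.43 with 13, and the sperm phosphatase genes gsp-3 and gsp-4 1.33 with both. The 20 spe and fer genes, which act in sperm development and activation, had a median of 0.41 with 1, and of -0.07 after quantile normalization. Members of the msp and nspd families are close copies that share reads, so their values are not separate measurements of as many genes.

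The member with the smallest p, ssp-35, had 12.57, 12.76, 11.9 and 11.7 FPKM in the ash-2 + hsf-1 libraries, 39.5, 33.5, 25.9 and 38.2 FPKM in the hsf-1 libraries, 2.19, 3.46, 3.88 and 3.22 FPKM in the ash-2 libraries, and 22.9, 24.5, 21.2, 24.8 and 19.6 FPKM in the L4440 libraries. No group overlapped its neighbours. The gene was lower with ash-2 RNAi in both backgrounds, by a called change of -1.43 ± 0.19 with hsf-1 RNAi (adjusted p = 0.000321) and of -2.67 ± 0.18 with L4440 (SE; adjusted p = 3.52e-07). Its interaction of 1.23 ± 0.27 was not called (adjusted p = 0.144).

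**Figure D4:**
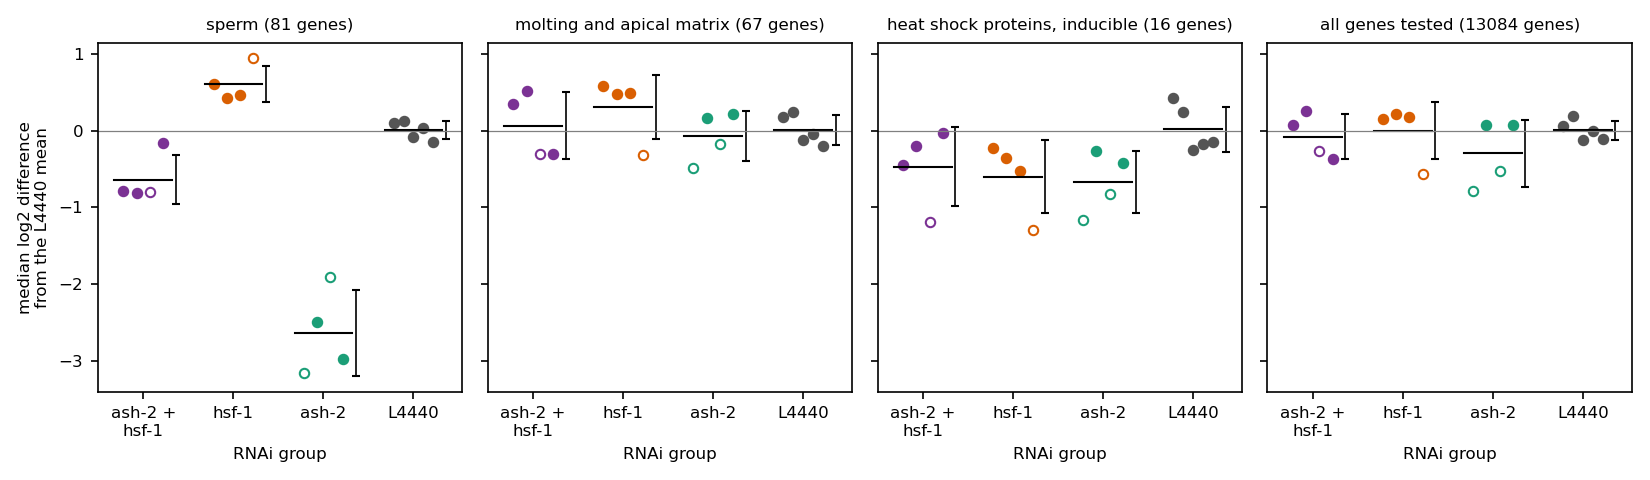
Median over the tested members of 3 gene lists and over all genes tested of the log2 difference from the L4440 mean (vertical axis), by library in the 4 RNAi groups (horizontal axis); lines are group means, bars 1 SD, open circles the 4 libraries with few detected genes. For sperm genes the 4 ash-2 + hsf-1 libraries lie between -0.81 and -0.16 and the 4 ash-2 libraries between -3.16 and -1.91; for the inducible heat shock genes the open circles lie lowest in each group that has one.

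Other germ cell lists did not show this pattern. The germline and meiosis list had 0 of 43 tested members past an unadjusted p under 0.05, and the oocyte and eggshell list 0 of 34, with medians of 0.20 and -0.06. The summed level of the oocyte and eggshell list ran from 12586 to 16375 FPKM on both clones, from 9919.7 to 14101 FPKM on hsf-1 RNAi, from 16449 to 20796 FPKM on ash-2 RNAi and from 13151 to 15239.9 FPKM on L4440. Body wall muscle, where the transgene is driven, had 0 of 38 past that measure, a median of 0.01, and a summed level of 11838 to 13739 FPKM on both clones, 12207 to 16214 FPKM on hsf-1 RNAi, 11365 to 13176 FPKM on ash-2 RNAi and 11848 to 12674 FPKM on L4440. The part of differences in germ cell content in the interactions was not tested.

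The genes that HSF-1 is best known for gave a weaker picture. Of 17 inducible heat shock genes 16 were tested, 0 were called, and 5 had a positive interaction at an unadjusted p under 0.05 (31.2%), with 0 negative and a median of 0.59. The 6 hsp-16 genes, small heat shock proteins that hold unfolded proteins, had a median of 1.85, and 4 of the 5 positive genes were theirs. hsp-16.1 had 5.12, 11.2, 4.00 and 13.9 FPKM in the ash-2 + hsf-1 libraries, 7.90, 8.08, 6.57 and 3.40 FPKM in the hsf-1 libraries, 2.75, 8.09, 2.60 and 5.61 FPKM in the ash-2 libraries, and 23.8, 19.1, 11.1, 12.01 and 10.1 FPKM in the L4440 libraries. All 8 libraries on a single clone were below all L4440 libraries, and the ash-2 + hsf-1 libraries spread over both. Its interaction was 1.91 ± 0.60 (SE; adjusted p = 0.391).

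In each group that held libraries with few detected genes, these had the lowest median of the inducible heat shock list. The list's median was 0.12 without the 4 libraries, 0.12 without hsf-1 replicate 4, 0.39 and 0.30 when ash-2 replicate 1 or replicate 3 was left out, and 0.32 without L4440 replicate 1. The positive count was 3 without the 4 libraries, and 3 without L4440 replicate 1 or 2, without ash-2 replicate 1 or 3, or without ash-2 + hsf-1 replicate 2 or 4. It was 3 with the covariate and 1 with the array weights, which did not converge. The hsp-16 genes had medians of 1.61 after median-of-ratios scaling, 1.51 after quantile normalization, 1.34 with the covariate and 1.28 without the 4 libraries. The close copies hsp-16.1 and hsp-16.11, and likewise hsp-16.48 and hsp-16.49, share reads. The constitutive cytosolic chaperones had 1 of 30 past an unadjusted p under 0.05 and a median of -0.04.

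The innate immunity list held both called positive genes among its 70 tested of 89 members. Of the called genes, spp-9 passed the level filter only through the ash-2 + hsf-1 libraries, so its call adds no support here. At an unadjusted p under 0.05, 9 members were positive, spp-9 included, and 3 negative (17.1% in either direction, against 6.37% of all genes). The positive count was 15 without L4440 replicate 5 and 28 with the array weights, which did not converge. The next members of the list ran in both directions. The antimicrobial peptide gene cnc-4 averaged 31.2 ± 10.2 FPKM on both clones, 55.4 ± 7.59 FPKM on hsf-1 RNAi, 12.03 ± 2.01 FPKM on ash-2 RNAi (SD, n = 4 each) and 67.3 ± 19.4 FPKM on L4440 (SD, n = 5), an interaction of 1.54 ± 0.35 (SE; adjusted p = 0.170). The saposin-like gene spp-21 had an interaction of -1.81 ± 0.41 (SE; adjusted p = 0.167) and was highest on hsf-1 RNAi alone, at 3.56 ± 1.19 FPKM (SD, n = 4).

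Of the 33 proteasome genes, 0 were called and 6 were negative at an unadjusted p under 0.05, with a median of -0.26. The regulatory particle gene rpn-6.1 had 109.6, 119.6, 152 and 103.6 FPKM in the ash-2 + hsf-1 libraries, 105, 118, 115 and 135 FPKM in the hsf-1 libraries, 179, 151, 174 and 133 FPKM in the ash-2 libraries, and 107, 97.6, 124, 108 and 113 FPKM in the L4440 libraries. It was highest on ash-2 RNAi alone, and its interaction of -0.50 ± 0.19 was not called (SE; adjusted p = 0.597). The count of 6 was 0 without the 4 libraries and after median-of-ratios scaling, 1 after quantile normalization and 2 with the covariate. It was 1 without L4440 replicate 2, ash-2 replicate 1, ash-2 replicate 3 or hsf-1 replicate 4, 2 without hsf-1 replicate 2, and 3 without L4440 replicate 1, 3 or 4. It was 8 without ash-2 replicate 4, and 9 without hsf-1 replicate 3 or ash-2 + hsf-1 replicate 3. The H3K4 methylation machinery, to which ash-2 itself belongs, had 0 of 19 tested members past an unadjusted p under 0.05.

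**Figure D5:**
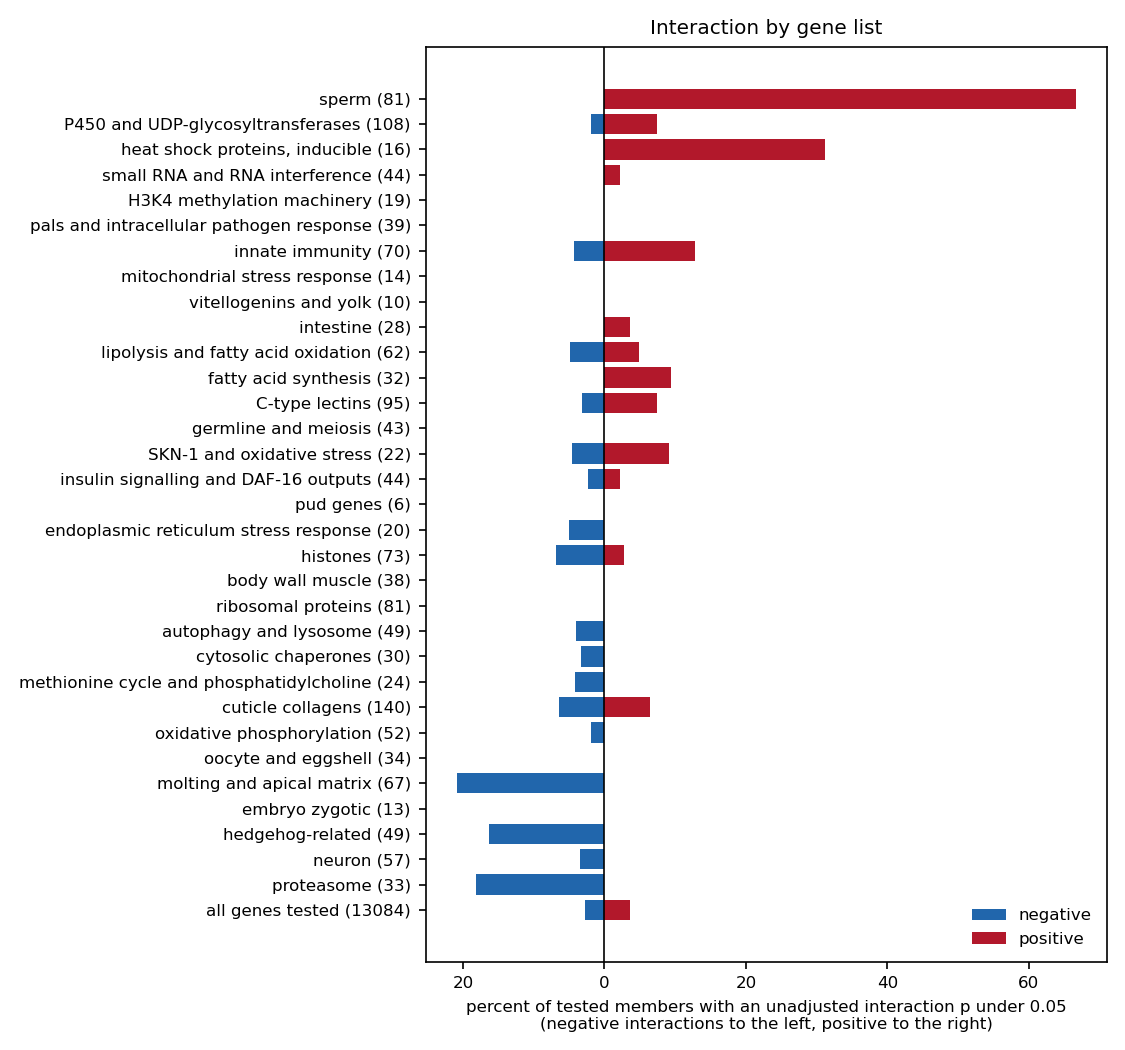
Percent of tested members with an unadjusted interaction p under 0.05 (horizontal axis, negative interactions to the left in blue, positive to the right in red) for the 32 gene lists and all genes tested (vertical axis, number tested in brackets, lists ordered by their median interaction). Sperm genes reach 66.7% on the positive side, against 3.68% of all genes; the molting and apical matrix list reaches 20.9% on the negative side, against 2.69% of all genes.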

How the data were processed

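The authors computed FPKM per gene and deposited it in 1 table of 17 libraries, whose 17 columns all matched a labelled sample. Per the labels, 1 to 5 µg of RNA per sample went through a TruSeq stranded mRNA preparation. The submitters' processing notes name cutadapt, HISAT2, StringTie and DESeq2 and the build WBcel235; no source used here gives versions or settings. FPKM is relative to library size, so a few strong genes can shift all others; its sum per library ran from 722914 to 925181. Fragment counts and the authors' comparison tables were not used here.

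From these values log2(FPKM + 0.5) was taken where at least 4 libraries had an FPKM of 1 or more. limma 3.58.1 in R 4.3.3 fitted 4 group means over all 17 libraries (lmFit and eBayes, trend and robust), with p-values two-sided and adjusted by Benjamini-Hochberg. The fit was tested on simulated data with independent noise, each gene's spread capped at the median over genes. Library-wide shifts were not simulated, so this does not show how the fit behaves under them. Python 3.11.15, pandas 2.3.3 and numpy 2.4.6 made the exact permutation tests and summaries. Of 26786 gene IDs, 26780 matched the RefSeq gene table of WBcel235, the source of coordinates and overlaps.

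Named genes were the targets, up to 10 called genes in each direction with a symbol and a mean of at least 10 FPKM in their highest group, and of each list up to 2 called members or the 1 with the smallest p; further list members were picked after their values were seen. The comparison and the lists were chosen with earlier results of these data known. Alternatives were 2 pseudocounts, 2 filters, 2 scalings, a covariate, array weights, plain eBayes, replicate blocks and omitted libraries.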

Additional observations from a re-analysis of the deposited data

Results flagged for a closer look

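The 14 genes whose ash-2 change differed between the hsf-1 RNAi and L4440 backgrounds by the interaction test are tts-2 (-2.34), sqt-3 (-2.42), cut-2 (-2.13), lpr-6 (-2.12), F46C5.1 (-1.65), bus-5 (-1.63), hhat-1 (-1.80), lpr-3 (-1.93), T22F3.11 (-2.32), adh-1 (-1.16), F18C5.5 (-1.96), dao-2 (-1.26), ilys-2 (1.31) and spp-9 (2.33), all on the log2 scale.

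Single libraries far from the rest of their group, by Dixon's test at 95%, were found in 7 of 63 sets of gene and group examined. The test flags about 1 in 20 independent sets by chance. These sets share libraries, so 7 of 63 does not measure an excess over that. The ash-2 transcript was at 5.57 FPKM in hsf-1 replicate 4, the lowest of its group. T22F3.11 stood high at 26.98 FPKM in ash-2 + hsf-1 replicate 4 and at 50.2 FPKM in hsf-1 replicate 4. The ilys-2 level was 49.2 FPKM in ash-2 + hsf-1 replicate 3, above the other 3. The lpr-6 level was 9.32 FPKM in ash-2 + hsf-1 replicate 4, below the other 3. The bus-5 level was 6.49 FPKM in L4440 replicate 5, below the other 4. spp-9 was at 0.127 FPKM in ash-2 replicate 4 and listed at 0 in the other 3, where any value above 0 would have been flagged.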

How the results depend on the processing

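The interaction of mex-3, not called at 0.65, was -0.15 without the 4 libraries with few detected genes; no other named gene changed sign under an alternative. The count of called genes, 14 (2 positive and 12 negative), was 9 with a pseudocount of 0.1 (1 positive), 13 with a pseudocount of 1 (1 positive), 8 with no filter (1 positive, 7 negative), 16 with an FPKM of at least 5 (1 positive), 45 after median-of-ratios scaling (10 positive, 35 negative), 78 after quantile normalization (76 negative), 196 with the number of detected genes as a covariate (65 positive, 131 negative), 752 with array weights (385 positive, 367 negative) and 5 without the 4 libraries with few detected genes (3 positive, 2 negative). Among these calls were 9, 13, 8, 13, 8, 13, 14, 14 and 3 of the 14, in the order of the settings above. The negative share, 85.7% of calls, was 97.4% after quantile normalization, 66.8% with the covariate, 48.8% with array weights and 40% without the 4 libraries. The array weights did not converge and gave 1 library a very large weight. The cause of these shifts was not tested. Leaving out 1 library gave 4 to 9 calls, 1 to 2 of them positive and 3 to 8 negative. The ash-2 level with both clones against hsf-1 RNAi, as a difference, ran from -8.53 to -4.16 FPKM when 1 library was left out. Its exact permutation test passed only without hsf-1 replicate 4, the library whose ash-2 level set it apart.

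The labels give no pairing, and not every same-numbered pair correlated: deviations ran from -0.689 to 0.686 overall and from 0.428 to 0.686 for replicate 2. By the titles' numbers, a library correlated best with its own number in 20 of 48 cases. If every library of the other group were equally likely to be the best, the number would be 11.4. The descriptions differ from the titles in 1 way: replicate 4 of the hsf-1 and of the ash-2 + hsf-1 animals carries number 5 there. With a replicate block by the titles' numbers 7 genes were called (2 positive, 5 negative), and with one by the descriptions' numbers 15 (4 positive, 11 negative). Depth is unknown, so low genes such as spp-9 carry a counting error that could not be set.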
